A study of Mus musculus with 12 samples.

Results

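The 10 genes described here encode the light-signalling cascade of cone photoreceptors: the cone opsins Opn1sw and Opn1mw, the cone transducin subunits Gnat2, Gnb3 and Gngt2, the cone phosphodiesterase subunits Pde6c and Pde6h, the channel subunits Cnga3 and Cngb3, and cone arrestin, Arr3. They were chosen by symbol, and all 10 were found among the 54532 gene identifiers of the count and FPKM tables. Retinas of wild type C57BL/6 mice aged 13 weeks gave 12 RNA-seq libraries, divided evenly among 4 groups of 3. SHAM mice were the sham controls. MOG mice had been immunized with the myelin peptide MOG35-55 in complete Freund's adjuvant with mycobacterium tuberculosis and given pertussis toxin, which induces experimental autoimmune encephalomyelitis with optic neuritis. GB20 and GV16 mice had been immunized in the same way and were then needled at the acupoint GB20 or at the control acupoint GV16. All mice were female by the study's methods. The needled mice were anesthetized with xylazine and ketamine for needling, and the methods do not say so of SHAM or MOG mice, so that needling and anesthesia cannot be told apart. The methods give several mice per group in each repeat of the experiment, and whether a library pools their retinas is not given in the sources used here.

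In a cone, a photon absorbed by the opsin activates transducin, which releases the catalytic phosphodiesterase subunit from its inhibitory subunit. Cyclic GMP then falls, the cyclic nucleotide-gated channel closes and the cell hyperpolarizes, until arrestin binds the phosphorylated opsin and ends the response. Rods use a parallel set of proteins from separate genes and greatly outnumber cones in the mouse retina. Many mouse cones carry both opsins, with the short-wavelength opsin Opn1sw dominant in the ventral retina and the middle-wavelength opsin Opn1mw more abundant dorsally, where the thyroid hormone receptor Thrb is needed for Opn1mw expression.

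The upstream sequences of both opsins and of Arr3, whose levels are described most closely, are shown first. Each is the 250 bases before the RefSeq start site on GRCm38.p6, written 5′ to 3′ on the strand of the gene, with any match to AGGTCA, the letters of a nuclear receptor site, or TAATCC, the letters bound by CRX and OTX2, in capitals on either strand. The windows are chr6:29380514-29380763 on the minus strand for Opn1sw, chrX:74127216-74127465 on the plus strand for Opn1mw and chrX:100605247-100605496 on the plus strand for Arr3.
Opn1sw: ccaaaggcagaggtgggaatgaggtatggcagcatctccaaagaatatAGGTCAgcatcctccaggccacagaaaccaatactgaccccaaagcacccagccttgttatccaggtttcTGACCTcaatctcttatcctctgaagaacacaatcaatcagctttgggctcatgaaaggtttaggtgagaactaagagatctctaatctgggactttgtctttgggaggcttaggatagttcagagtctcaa
Opn1mw: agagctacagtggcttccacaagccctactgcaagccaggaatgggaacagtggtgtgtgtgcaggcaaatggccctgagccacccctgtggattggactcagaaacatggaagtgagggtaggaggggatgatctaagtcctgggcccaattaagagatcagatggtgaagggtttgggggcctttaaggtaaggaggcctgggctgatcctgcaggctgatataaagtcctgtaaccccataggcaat
Arr3: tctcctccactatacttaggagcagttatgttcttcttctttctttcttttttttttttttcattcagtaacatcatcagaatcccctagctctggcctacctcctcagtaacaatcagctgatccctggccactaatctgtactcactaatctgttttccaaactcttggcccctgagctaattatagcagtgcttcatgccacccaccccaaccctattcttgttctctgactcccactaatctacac

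The Opn1sw window held AGGTCA at 2 places, starting 202 bases before the start site on the strand of the gene and 132 bases before it on the other strand. Neither motif was found in the windows of Opn1mw and Arr3. Of the 6 members with a promoter entry in RefSeq, which have 7 windows, only Opn1sw held AGGTCA and only Gnat2 held TAATCC, and the Gnat2 window lies wholly within exons annotated in GENCODE vM21. Among the 32536 mouse windows of the same length, 14.0% held AGGTCA and 6.25% held TAATCC on either strand. A match is a description of letters in a window and not evidence of binding.

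Each library held between 15860278 and 19194280 counts on genes, of which the 10 members took 0.173% to 0.213%. All 10 passed the filter on low counts, with at least 202 counts for a member in any library. Values are given as CPM (counts scaled to the TMM library size) for comparisons between groups and as FPKM (counts scaled to gene length and library size) for comparisons between genes. No member was at 0 in any library, and summed over the 10 the level was 1803 to 2107 CPM in SHAM, 1807 to 1942 in MOG, 1928 to 1997 in GB20 and 1738 to 2016 in GV16. These ranges overlapped. In whole retina, fewer cones and less RNA per cone cannot be told apart.

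Per length, Gnb3, Opn1sw and Arr3 were the most abundant members, with means over the 12 libraries of 163, 159 and 152 FPKM. They were not ordered among themselves, since Gnb3 exceeded Opn1sw in 7 libraries and Opn1sw exceeded Arr3 in 5. Opn1mw followed at 109 FPKM, below Arr3 in 11 libraries, then Gnat2 at 66.1 and Pde6c at 44.8, and the ranges of these 3 did not overlap those of their neighbours below. Gngt2 at 23.3 FPKM exceeded Pde6h at 17.4 in all 12 libraries, although their ranges over libraries met. The channel subunits stood last, with Cngb3 at 4.59 FPKM above Cnga3 at 3.43 in all 12 libraries. These levels depend on the gene lengths used by the authors, which count all annotated exons together. Pde6h was given a length of 7894 bases on that basis, against 2573 for Opn1sw.

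Relative to their rod counterparts, the cone forms made up a small share of most steps of the cascade from transducin on. Taking cone and rod FPKM together, the mean cone share over the 12 libraries was 1.99% for transducin alpha (Gnat2 with Gnat1), 2.23% for the inhibitory phosphodiesterase subunit (Pde6h with Pde6g), and 2.28% for the channel alpha subunit (Cnga3 with Cnga1). It was 3.59% for the channel beta subunit (Cngb3 with Cngb1) and 3.83% for the catalytic phosphodiesterase (Pde6c with Pde6a and Pde6b). It was larger for transducin gamma (Gngt2 with Gngt1, 8.24%), transducin beta (Gnb3 with Gnb1, 14.4%) and arrestin (Arr3 with Sag, 22.2%). Gnb3 is also used by ON bipolar cells and Gnb1 by many cell types, so that the beta share is not one of cones to rods.

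**Figure D1:**
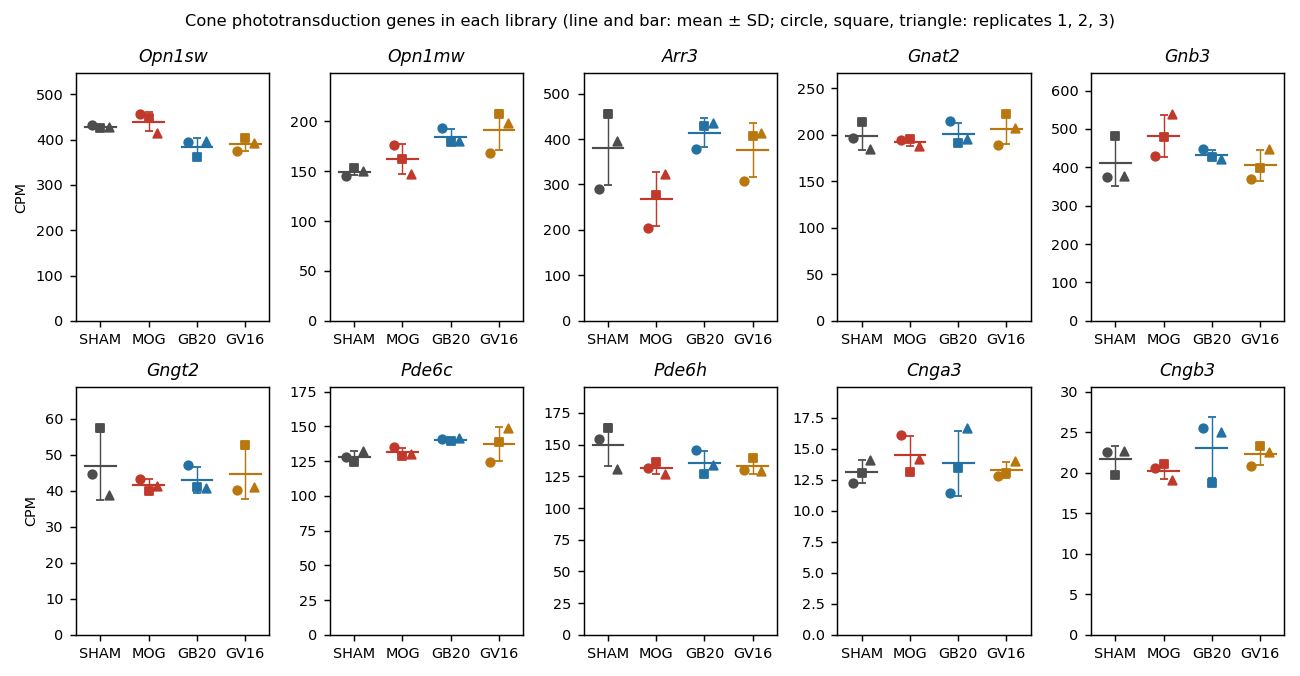
CPM of each of the 10 cone phototransduction genes in every library, with the 4 groups on the x axis, libraries numbered 1, 2 and 3 as circle, square and triangle, and the group mean ± SD as line and bar (n = 3). Opn1mw lies at 145 to 153 CPM in SHAM and at 168 to 207 in the needled groups, Arr3 is lowest in MOG, and the channel subunits stay under 26 CPM throughout.

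In the needled groups the mean of Opn1sw was below, and that of Opn1mw above, those of SHAM and MOG, and of these differences Opn1mw in GV16 vs. SHAM passed the test. Opn1sw (ENSMUSG00000058831, GRCm38 chromosome 6, 29376671 to 29388468, minus strand) was counted at 432, 427 and 427 CPM in SHAM, at 455, 449 and 415 in MOG, at 394, 362 and 398 in GB20 and at 374, 404 and 393 in GV16. All 6 needled libraries therefore lay below all 3 SHAM and all 3 MOG libraries. The share of all genes separated in this way was not counted. The means were 429 ± 3.13 CPM in SHAM, 440 ± 21.4 in MOG, 384 ± 19.6 in GB20 and 390 ± 14.9 in GV16 (SD, n = 3 each). The log2 fold change was -0.19 in GB20 vs. MOG (SE 0.070, adjusted p = 0.467 by the quasi-likelihood F test of edgeR, adjusted after Benjamini and Hochberg) and -0.17 in GV16 vs. MOG (SE 0.070, adjusted p = 0.852), so neither difference passed the threshold of 0.05. Against SHAM it was -0.16 in GB20 (adjusted p = 0.493) and -0.13 in GV16 (adjusted p = 0.502), and in MOG it was 0.037 (adjusted p = 0.859). Of the exonic sequence of Opn1sw, 15.5% overlaps Calu on the other strand, and the strand setting of the counting is not given, so its counts are uncertain to that extent. Calu itself was at 139 CPM on average and had a log2 fold change of -0.11 in GB20 vs. MOG and -0.12 in GV16 vs. MOG. Its part in the Opn1sw values was not tested.

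Opn1mw (ENSMUSG00000031394, chromosome X, 74127464 to 74150760, plus strand) was counted at 145, 153 and 151 CPM in SHAM, at 177, 162 and 147 in MOG, at 193, 180 and 180 in GB20 and at 168, 207 and 199 in GV16. All needled libraries lay above all SHAM libraries. The MOG libraries overlapped SHAM and GV16 and lay below all GB20 libraries. The means were 150 ± 3.74 CPM in SHAM, 162 ± 14.7 in MOG, 184 ± 7.63 in GB20 and 191 ± 20.3 in GV16 (SD, n = 3 each).

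Opn1mw rose in GV16 vs. SHAM, by 1.28-fold with a 95% interval of 1.12 to 1.46 (log2 fold change 0.35, SE 0.081, adjusted p = 0.0404 by the quasi-likelihood F test of edgeR, adjusted after Benjamini and Hochberg). It was the 1 member of 10 called in that comparison, where 0.656% of the 18299 tested genes were called (1.29% with the replicate number as a block), 0.224% of them as higher in GV16. The call was narrow. It was lost without SHAM replicate 1 (adjusted p = 0.20), SHAM replicate 3 (0.0516), MOG replicate 2 (0.0666), GB20 replicate 1 (0.0526), GB20 replicate 3 (0.0559), GV16 replicate 2 (0.272) or GV16 replicate 3 (0.248), and in edgeR on the 6 libraries of the pair (0.11). Over all 24 alternatives the log2 fold change lay between 0.29 and 0.44, and 14 of them called it. In GB20 vs. SHAM the log2 fold change was 0.30 (SE 0.081, 1.23-fold) with an adjusted p of 0.118, and over its alternatives the adjusted p ranged from 0.0171 to 0.504. DESeq2 called it on all 12 libraries (adjusted p = 0.0415) and on the 6 of the pair (adjusted p = 0.0225). Against MOG the values were 0.18 for GB20 (SE 0.081, adjusted p = 0.57) and 0.24 for GV16 (SE 0.081, adjusted p = 0.623), and MOG vs. SHAM gave 0.12 (SE 0.081, adjusted p = 0.56).

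Markers of other cells differed along with the groups, beginning with GV16 vs. SHAM. All 10 tested markers of retinal ganglion cells, the output neurons damaged in optic neuritis, were lower in GV16 (summed level 846 to 959 CPM in SHAM and 443 to 642 in GV16), and of 6 Muller cell markers Rlbp1, the retinaldehyde-binding protein of the visual cycle, was lower (log2 fold change -0.36, adjusted p = 0.0261). Pigment epithelium markers, of which 7 of 8 were tested and 0 were called by edgeR (3 at an unadjusted p under 0.05, and Rpe65 called by DESeq2 on 12 and on 6 libraries), summed to 17.5 to 24.1 CPM in SHAM and 19.5 to 57.9 in GV16. Leukocyte markers, of which 5 of 8 were tested and 0 called (1 at an unadjusted p under 0.05), summed to 6.16 to 6.94 CPM in SHAM and 7.39 to 12.05 in GV16. None of the markers on these lists was at 0 over either group. The other comparisons had such differences as well. Ganglion cell markers summed to 471 to 568 CPM in MOG and 563 to 585 in GB20. By edgeR, 10 of 10 were called as lower in MOG vs. SHAM and 4 of 10 in GB20 vs. SHAM. In GB20 vs. SHAM all 10 were lower at an unadjusted p under 0.05. There DESeq2 called 8 on 12 libraries and 9 on 6, edgeR on 6 libraries 8 and limma-voom 6. In either needled group vs. MOG, edgeR called 0 of 10. At an unadjusted p under 0.05 there were 3 for GB20 and 0 for GV16. DESeq2 on 6 libraries and edgeR on 6 libraries each called 1 for GB20. The 6 Muller cell markers summed to 3156 to 3380 CPM in SHAM, 2831 to 3149 in MOG, 3068 to 3252 in GB20 and 3151 to 3319 in GV16. Of them the water channel Aqp4 was called, as higher in MOG vs. SHAM (log2 fold change 0.46) and lower in GB20 vs. MOG (-0.35) and GV16 vs. MOG (-0.34). Its adjusted p in GV16 vs. MOG was 0.0472 by edgeR. Glul, also of these 6, was not called and had the other sign in each (-0.26, 0.18 and 0.25). At an unadjusted p under 0.05 there were 2, 3 and 3 of 6 in these comparisons. DESeq2 called 2, 1 and 1 on 12 libraries and 1, 1 and 2 on 6. On 6 libraries edgeR called 1 in each, and limma-voom called 1, 1 and 0. Pigment epithelium markers summed to 34.1 to 46.9 CPM in MOG and 35.3 to 40.9 in GB20, both above the SHAM range. Against SHAM, edgeR called 0 of the 7 tested in MOG and in GB20, with 4 at an unadjusted p under 0.05 in each. DESeq2 called 1 on 12 libraries and 3 on 6 in each of these comparisons. On 6 libraries edgeR called 3 for MOG and 2 for GB20, and limma-voom called 0. The part of these markers in the values of the opsins and Arr3 was not tested.

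The ratio of the opsins within a library needs no scaling for library size, but a length trend that differs between libraries would not cancel. The gene lengths used were 2573 bases for Opn1sw and 1571 for Opn1mw. In an alternative fit with an offset for such a trend, GB20 vs. MOG gave -0.25 for Opn1sw and 0.082 for Opn1mw, against -0.19 and 0.18 without it. MOG vs. SHAM gave 0.11 and 0.22, against 0.037 and 0.12. The ratio itself was not tested with this offset. There were 2.97, 2.79 and 2.84 Opn1sw counts per Opn1mw count in SHAM and 2.58, 2.76 and 2.82 in MOG, against 2.04, 2.01 and 2.21 in GB20 and 2.22, 1.95 and 1.98 in GV16. The SHAM and MOG ranges overlapped, as did those of the needled groups, and every needled library lay below every library of the other groups. How often the ratio of other gene pairs is separated in this way was not counted. The log2 ratio was 1.52 ± 0.047 in SHAM, 1.44 ± 0.068 in MOG, 1.06 ± 0.073 in GB20 and 1.03 ± 0.10 in GV16 (SD, n = 3 each). Opn1sw made up 72.1% to 74.8% of the opsin counts of a SHAM or MOG library and 66.1% to 69.0% of those of a needled library. For the SHAM or MOG library with the lowest share, MOG replicate 1, the 95% Wilson interval was 71.2% to 72.9%, and for the needled library with the highest share, GV16 replicate 1, it was 68.0% to 69.9%. These intervals cover counting error only. Per length, the FPKM ratio was 1.75 in SHAM, 1.66 in MOG, 1.28 in GB20 and 1.25 in GV16.

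On the log2 scale the ratio differed by -0.38 between GB20 and MOG (SE 0.058), by -0.41 between GV16 and MOG (SE 0.071), by -0.46 between GB20 and SHAM (SE 0.050) and by -0.48 between GV16 and SHAM (SE 0.066). Each gave p = 0.1 in a 2-sided exact permutation test, the smallest p that 3 libraries against 3 allow, and 0.15 after Benjamini-Hochberg adjustment over the 6 comparisons, so this design could not pass 0.05. MOG differed from SHAM by -0.077 (SE 0.047, exact permutation p = 0.2, adjusted 0.24). GB20 differed from GV16 by 0.026 (SE 0.073, exact permutation p = 0.6). After these values had been seen, the needled groups were pooled. Their 6 libraries differed from the 3 MOG libraries by -0.39 (SE 0.051) and from the 3 SHAM libraries by -0.47 (SE 0.043) on the log2 scale, given as a description with no test, since the pooling followed from the values. In the same grouping, likewise chosen with the values known, the log2 fold change of Opn1mw against SHAM was 0.33 (SE 0.071). Opn1sw had -0.15 (SE 0.060), and 1.17% of all tested genes were called by edgeR in that comparison. Against MOG the values were 0.21 (SE 0.070) for Opn1mw and -0.18 (SE 0.060) for Opn1sw, where 0.317% of genes were called. No p-value is given for the opsins in this grouping, since it followed from their values. The pooled fold changes are descriptions and add no test to that of Opn1mw in GV16 vs. SHAM.

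**Figure D2:**
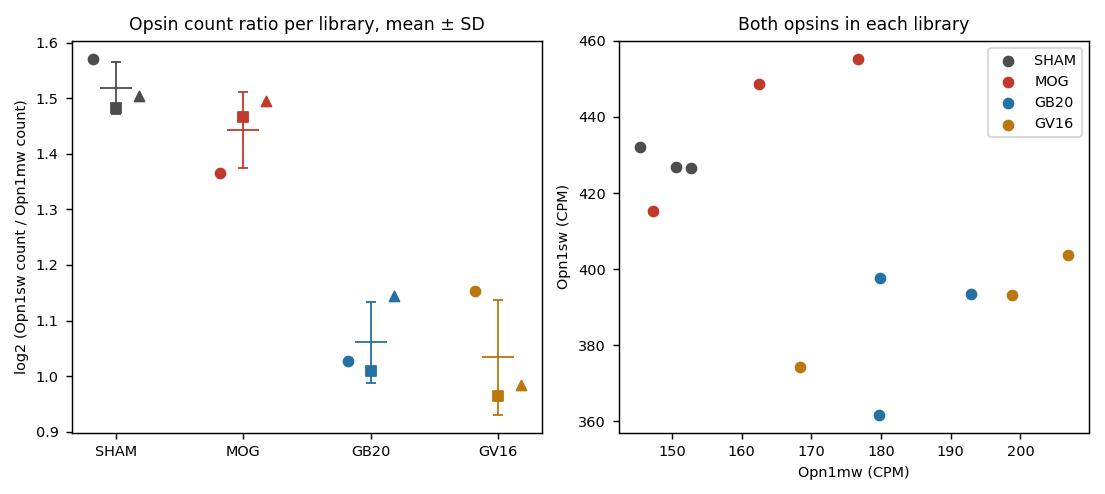
Left, log2 ratio of Opn1sw to Opn1mw counts in each library by group, with mean ± SD (n = 3) and libraries 1, 2 and 3 as circle, square and triangle. Right, CPM of both opsins in each library, coloured by group. The SHAM and MOG libraries lie between 1.37 and 1.57 on the left and the needled libraries between 0.965 and 1.15, and neither axis starts at 0.

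Genes that mark the dorsal and ventral retina, along which the opsins are graded, gave no call. Of 7 dorsal genes tested, among them Tbx5 and Aldh1a1, and 4 of 6 ventral genes tested, among them Ephb3 and Vax2, edgeR called 0 in each of the 6 comparisons. At an unadjusted p under 0.05 there were 0 dorsal genes in all comparisons and 1 ventral gene in each needled group vs. MOG and in GB20 vs. SHAM. The dorsal genes summed to 208 to 220 CPM in SHAM, 190 to 207 in MOG, 188 to 212 in GB20 and 189 to 218 in GV16. The ventral genes summed to 88.8 to 91.8 CPM in SHAM, 79.9 to 88.3 in MOG, 76.2 to 85.6 in GB20 and 85.8 to 90.3 in GV16. The dorsal ranges of SHAM and MOG were apart, as were the ventral ranges of SHAM and of both MOG and GB20. The ventral ranges of GB20 and GV16 were narrowly apart as well. The part of these genes in the opsin ratio was not tested. The transcription factor Thrb was at 83.7 ± 4.29 CPM in SHAM, 96.9 ± 7.06 in MOG, 85.0 ± 6.33 in GB20 and 91.6 ± 3.77 in GV16 (SD, n = 3), and its partner Rxrg, which represses Opn1sw in cones, was at 8.21 ± 1.27, 6.58 ± 0.43, 7.10 ± 0.65 and 6.79 ± 1.32 CPM. Neither was called in any comparison. The unadjusted p of edgeR's test for Thrb was 0.0103 in MOG vs. SHAM (log2 fold change 0.21) and 0.0194 in GB20 vs. MOG (-0.19). Its MOG range, 89.3 to 103 CPM, lay above that of SHAM, 79.0 to 87.4. Rxrg had no unadjusted p under 0.05.

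Cone arrestin, Arr3 (ENSMUSG00000060890, chromosome X, 100605497 to 100618493, plus strand), reached the largest fitted difference of any member and also had the widest spread between libraries of a group. It was counted at 291, 454 and 397 CPM in SHAM, at 205, 277 and 322 in MOG, at 378, 428 and 436 in GB20 and at 309, 407 and 414 in GV16. MOG libraries overlapped SHAM and GV16, while all 3 GB20 libraries lay above all 3 MOG libraries. The means were 381 ± 82.7 CPM in SHAM, 268 ± 59.3 in MOG, 414 ± 31.7 in GB20 and 376 ± 58.7 in GV16 (SD, n = 3 each), and in each group the library numbered 1 was the lowest. The log2 fold change was -0.51 in MOG vs. SHAM (SE 0.20, adjusted p = 0.33 by the edgeR test), 0.63 in GB20 vs. MOG (SE 0.20, adjusted p = 0.48) and 0.49 in GV16 vs. MOG (SE 0.20, adjusted p = 0.921). None of these passed the threshold, and the unadjusted p-values of edgeR's quasi-likelihood test were 0.0334, 0.0124 and 0.0384. The call of Arr3 in these comparisons depends on whether the replicate number enters as a block, as given with the alternatives. Against SHAM the log2 fold change was 0.12 in GB20 (adjusted p = 0.931) and -0.017 in GV16 (adjusted p = 0.987). As a share of the arrestin FPKM of cones and rods together, Arr3 made up 23.7% ± 3.02 in SHAM, 17.1% ± 2.56 in MOG, 26.0% ± 1.81 in GB20 and 21.9% ± 0.855 in GV16. On this measure, which also moves with Sag, the rod arrestin, the highest MOG library (18.9%) lay below the lowest library of SHAM (20.3%), GB20 (24.7%) and GV16 (21.0%). The Pde6c share in MOG, at most 3.66%, likewise lay below the lowest library of GB20 (3.87%) and GV16 (3.68%), and overlapped SHAM. The shares of the other steps in MOG overlapped those of every other group. None of these separations was tested.

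**Figure D3:**
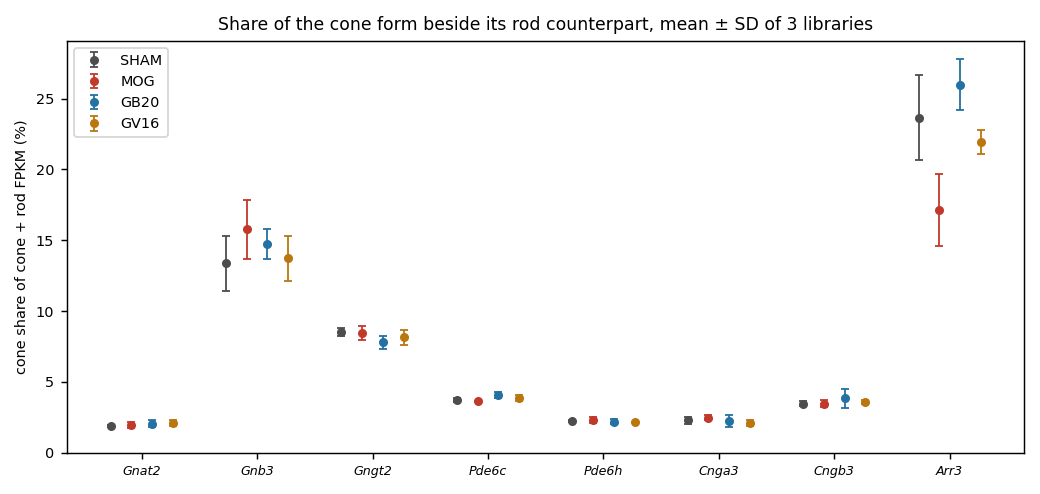
Share of the cone form in the summed FPKM of the cone and rod forms of each step, in percent, for the 4 groups as mean ± SD of 3 libraries. Arrestin stands at 17.1% in MOG and between 21.9% and 26.0% in the other groups, while the transducin alpha, phosphodiesterase and channel shares stay under 5% in every group mean.

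The transducin subunits gave no call. Gnat2, the alpha subunit specific to cones (ENSMUSG00000009108, chromosome 3, 108092789 to 108101432, plus strand), was one of the steadiest members, with 196, 214 and 185 CPM in the SHAM libraries, 194, 195 and 188 for MOG, 215, 191 and 196 for GB20, and for GV16 189, 222 and 207. Its ranges overlapped in all comparisons, and the fold in MOG vs. SHAM was 0.97 with a 95% interval of 0.858 to 1.10. Gnb3, the beta subunit (ENSMUSG00000023439, chromosome 6, 124834240 to 124840275, minus strand), was counted at 376, 483 and 377 CPM in the SHAM libraries, 429, 478 and 538 for MOG, 447, 428 and 422 for GB20, and for GV16 at 369, 397 and 448. SHAM replicate 2 stood above the other SHAM libraries and within the MOG range. The log2 fold change of Gnb3 was 0.23 in MOG vs. SHAM (SE 0.098, adjusted p = 0.326 by the edgeR test). Without SHAM replicate 2 it was 0.36 and was called (adjusted p = 0.032), and that library also held 15.3 CPM of the 6 lens markers, against 0.363 to 8.51 in the other 11 libraries. SHAM replicate 2 was also the highest SHAM library for Opn1mw, Arr3, Gnat2, Gngt2 and Pde6h, and the lowest for Opn1sw, Pde6c and Cngb3. The part of lens RNA in the Gnb3 value was not tested. In GV16 vs. MOG the log2 fold change of Gnb3 was -0.25 (SE 0.099, adjusted p = 0.812). Gngt2, the gamma subunit (ENSMUSG00000038811, chromosome 11, 95837216 to 95845734, plus strand), ranged from 38.7 to 57.3 CPM, both in SHAM, and 12.5% of its exonic sequence overlaps Abi3 on the other strand, which was at 1.21 CPM on average. Its log2 fold changes lay between -0.18 and 0.10 over the 6 comparisons.

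For the phosphodiesterase, Pde6c, the catalytic subunit (ENSMUSG00000024992, chromosome 19, 38132781 to 38183958, plus strand), was counted at 128, 124 and 132 CPM in the SHAM libraries, 135, 129 and 130 for MOG, 141, 139 and 141 for GB20, and for GV16 at 124, 139 and 149. All GB20 libraries lay above all SHAM and all MOG libraries, while the GV16 range overlapped those of all other groups. The log2 fold change was 0.13 in GB20 vs. SHAM (SE 0.070, adjusted p = 0.607) and 0.097 in GB20 vs. MOG (SE 0.070, adjusted p = 0.753), both by the edgeR test. Pde6h, the inhibitory subunit (ENSMUSG00000064330, chromosome 6, 136923832 to 136968865, plus strand), was counted at 155, 163 and 131 CPM in the SHAM libraries, 132, 136 and 127 for MOG, 146, 127 and 134 for GB20, and for GV16 at 130, 140 and 129. The ranges of SHAM overlapped those of the other groups through its replicate 3. The log2 fold change of Pde6h was -0.18 in MOG vs. SHAM (SE 0.079, adjusted p = 0.319), -0.14 in GB20 vs. SHAM (SE 0.079, adjusted p = 0.653) and -0.17 in GV16 vs. SHAM (SE 0.079, adjusted p = 0.445). Of its exonic sequence 1.73% overlaps Arhgdib on the other strand, which was at 3.24 CPM on average.

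The channel subunits were the least abundant members. Cnga3 (ENSMUSG00000026114, chromosome 1, 37214434 to 37263384, plus strand) was at 13.1 ± 0.934 CPM in SHAM, 14.5 ± 1.54 in MOG, 13.8 ± 2.62 in GB20 and 13.3 ± 0.634 in GV16 (SD, n = 3). Cngb3 (ENSMUSG00000056494, chromosome 4, 19280850 to 19510623, plus strand), the modulatory subunit, was at 21.6 ± 1.63, 20.2 ± 1.0, 23.0 ± 3.75 and 22.2 ± 1.31 CPM. All group ranges of both genes overlapped, and their log2 fold changes lay between -0.12 and 0.19 over the 6 comparisons.

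**Figure D4:**
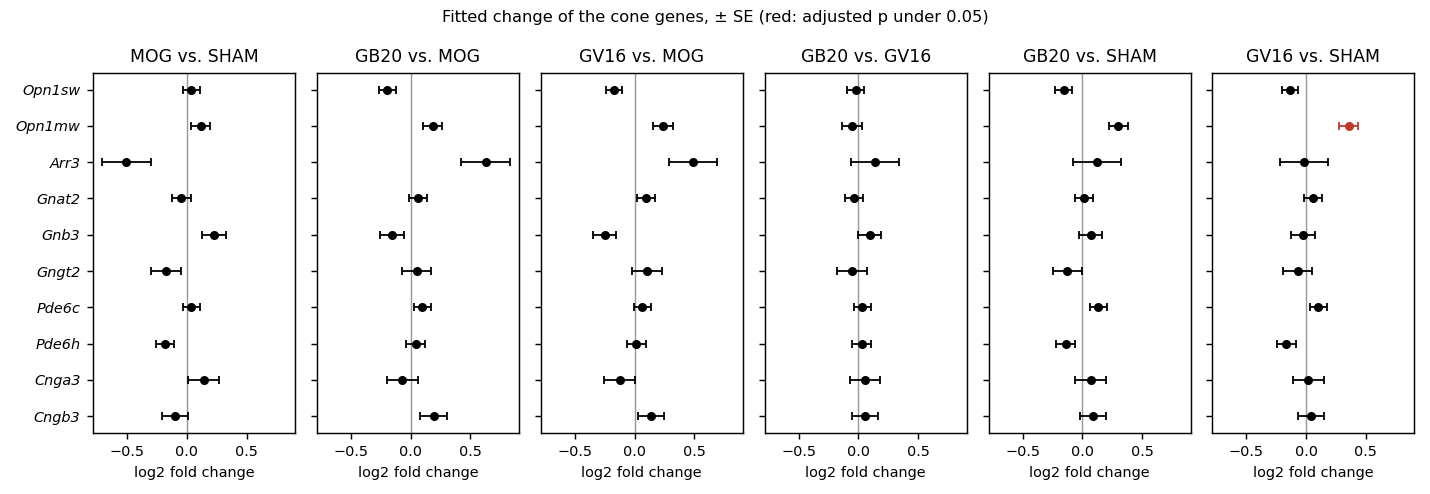
Fitted log2 fold change ± SE of each member in the 6 comparisons from the edgeR fit of all 12 libraries, with calls at an adjusted p under 0.05 in red. Opn1mw in GV16 vs. SHAM (0.35) is the 1 call, Arr3 reaches -0.51 in MOG vs. SHAM and 0.63 in GB20 vs. MOG, and in GB20 vs. GV16 all members lie between -0.055 and 0.14.

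Counted over the cascade, 0 of 10 members were DEGs (differentially expressed genes, at an adjusted p under 0.05) in MOG vs. SHAM by edgeR's quasi-likelihood test, where 1.34% of all tested genes were (2.21% with the replicate number as a block, whose calls of members are given with the alternatives). At an unadjusted p under 0.05 there were 3 members, Arr3, Gnb3 and Pde6h, against 13% of all genes. The ranges of 0 members were apart, against 16.2% of all genes. The median log2 fold change of the members was -0.0042, beside -0.0023 over all genes. DESeq2 on 12 or 6 libraries, edgeR on 6 libraries and limma-voom called 0 members as well.

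In GB20 vs. MOG edgeR called 0 of 10, where 0.24% of all genes were called (0.399% with the block), and 3 members, Opn1sw, Opn1mw and Arr3, had an unadjusted p under 0.05, against 8% of all genes. The ranges of 4 members were apart, Opn1mw, Arr3 and Pde6c higher and Opn1sw lower in GB20, against 15.7% of all genes. In GV16 vs. MOG edgeR called 0 of 10, where 0.164% of all genes were called (0.257% with the block), 4 members had an unadjusted p under 0.05 (Opn1sw, Opn1mw, Arr3 and Gnb3, against 5.3% of all genes), and the range of 1 member, Opn1sw, was apart (12.6% of all genes). The median log2 fold changes of the members were 0.055 and 0.081 in these comparisons, beside 0.00084 and 0.0024 over all genes. Both comparisons use the same MOG libraries. DESeq2 on 12 or 6 libraries, edgeR on 6 libraries and limma-voom called 0 members in either.

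GB20 and GV16 differed in 0 of 10 members by edgeR's test, with 0 at an unadjusted p under 0.05 and 0 with ranges apart, beside 0.00546%, 2.93% and 8.34% of all genes, and the other tools called 0. The widest interval of a fold between the needling sites was that of Arr3, 1.10-fold with a 95% interval of 0.797 to 1.52, and the narrowest was that of Opn1sw, 0.984-fold with 0.881 to 1.10. In GB20 vs. SHAM edgeR called 0 of 10, where 0.344% of all genes were called (0.995% with the replicate block), with 2 members at an unadjusted p under 0.05 (9.06% of all genes) and 3 with ranges apart (12.7%), namely Opn1mw and Pde6c higher and Opn1sw lower in GB20. DESeq2 called 1 member there on 12 and on 6 libraries, Opn1mw, and edgeR on 6 libraries and limma-voom called 0. In GV16 vs. SHAM the ranges of 2 members were apart, Opn1mw higher and Opn1sw lower, against 14.5% of all genes, and DESeq2 on 12 and on 6 libraries and limma-voom called 1 member, again Opn1mw. The median log2 fold change of the members was 0.070 in GB20 vs. SHAM and -0.00043 in GV16 vs. SHAM, beside 0.00085 and -0.0041 over all genes.

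Other genes of the photoreceptor cascade gave no call by edgeR in any of the 6 comparisons. These were 13 shared phototransduction genes, such as the kinase Grk1 and the guanylate cyclase activator Guca1a, 11 rod counterparts, 12 photoreceptor transcription factors and 7 further cone-enriched genes. At an unadjusted p under 0.05, the number ranged over the comparisons from 0 to 4 of 13, 0 to 1 of 11, 0 to 2 of 12 and 0 to 2 of 7. DESeq2 on the 6 libraries of GB20 and MOG called 1 shared gene, Guca1a, and 1 factor, Nrl, which edgeR gave a log2 fold change of 0.24 and 0.22, and made no other call on these lists. Crx, which drives many photoreceptor genes, was at 1139 ± 10.7 CPM in SHAM, 1129 ± 35.8 in MOG, 1143 ± 74.7 in GB20 and 1130 ± 12.1 in GV16. Nrl, which specifies rods, was at 2296, 2052, 2388 and 2358 CPM, and Nr2e3, which represses cone genes in rods, was at 719, 851, 760 and 833 CPM. Neither was called by edgeR. For Nr2e3 the unadjusted p of edgeR's test was 0.0117 in MOG vs. SHAM (log2 fold change 0.24) and 0.0261 in GV16 vs. SHAM (0.21). For Nrl it was 0.0164 in GB20 vs. MOG (0.22) and 0.0266 in GV16 vs. MOG (0.20). In each of these cases the ranges of the groups compared were apart. Of 9 genes of the visual cycle, Rlbp1 alone was called, as lower in GV16 vs. SHAM. The cone bipolar (7 genes) and horizontal cell lists (5 genes), which stand for the partners of cones, had 0 calls by edgeR in the 6 comparisons and at most 1 gene at an unadjusted p under 0.05 in any of them. DESeq2, limma-voom and edgeR on 6 libraries called none of these, and none of the dorsal, ventral or leukocyte genes.

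Members did not move as a unit from library to library. Over the 12 libraries, which include the group differences, the 45 pairs of members had a median Pearson correlation of log2 CPM of 0.13, from -0.58 for Opn1sw with Arr3 to 0.82 for Gnat2 with Gngt2, and 29 were positive. Among 10587 other genes with a mean of at least 10 CPM, those whose log2 CPM followed the mean of the standardized members most closely over the 12 libraries were Arg2 (Pearson r = 0.87), March5 (0.86), Pex2 (0.85), Trappc2l (0.85) and Snrpe (0.84). The points share their library and its scaling, and these values are descriptions.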

How the data were processed

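Retinal RNA of 12 libraries, 3 per group, was analysed, with group and replicate number taken from the labels. The authors enriched polyadenylated RNA, aligned reads with HISAT2 2.0.5 to mm10 per the submitters' processing notes, counted them per gene with FeatureCounts and deposited raw counts. The deposited FPKM values were computed by the authors from count and gene length. The sources used here do not give the annotation release, the strand setting or the treatment of multiply aligned reads.

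Counts were tested with edgeR 4.0.16 in R 4.3.3. Genes kept by its expression filter (18299) were scaled by TMM and fitted with 1 mean per group over 12 libraries (robust quasi-likelihood, 8 residual degrees of freedom), with Benjamini-Hochberg adjustment over all genes and a threshold of 0.05. Intervals of a fold used the SE with a t quantile at 8 degrees of freedom. The opsin ratio was tested by 2-sided exact permutation. DESeq2 1.42.0, limma 3.58.1 (voom, and log2 of FPKM plus 1 or 0.1), a replicate block, a length trend offset, other scalings, no filter and each library left out were alternatives, and figures used matplotlib 3.10.9. The scripts were tested on simulated data. Names and coordinates came from GENCODE vM21 (GRCm38) and promoter windows from RefSeq (GRCm38.p6).

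The 10 members were all named. From the other lists, called genes were named, with rod counterparts, Thrb, Rxrg, Crx, Nrl and Nr2e3, and the 5 genes most like the members in pattern. Grk1, Guca1a, Tbx5, Aldh1a1, Ephb3 and Vax2 were named only as examples of their lists, and Rpe65 and Guca1a because DESeq2 called them. Glul was named because its sign was opposite to that of Aqp4 in the comparisons where Aqp4 was called. The share planned for the opsins is not reported here. Members and lists were chosen with earlier results of these data known. P-values measure the spread between these libraries, which may in part be technical. Same-numbered libraries deviated together (all 3 correlations over 0.1, across 10597 genes) between SHAM and GB20 (0.21 to 0.53) and between SHAM and GV16 (0.23 to 0.30), so that the block was read as a pairing there, as an alternative to the unpaired fit. Between GB20 and GV16, which that reading would pair as well, they did not (-0.18, 0.017 and 0.084, against up to 0.23 between libraries of different number). The pairing is therefore uncertain. The labels do not say what a number marks.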

Additional observations from a re-analysis of the deposited data

How the results depend on the processing

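Over 24 alternatives per comparison, 123 of 144 member counts and 1418 of 1440 member log2 fold changes kept their side of the threshold and, where called, their direction. In GB20 vs. SHAM, 1 member, Opn1mw, was called without the filter on low counts, by DESeq2 on 12 or 6 libraries, and with the length trend offset and replicate block together. In GV16 vs. SHAM, 0 members were called by edgeR on 6 libraries (Opn1mw adjusted p = 0.11) and by limma on log2(FPKM + 1) or log2(FPKM + 0.1) (0.146 each). With 1 library left out, the number called was 0 to 1 in MOG vs. SHAM and 0 to 1 in GV16 vs. SHAM. The cause of these moves was not tested.

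With the replicate block, Arr3 became the 1 member called in MOG vs. SHAM (log2 fold change -0.51, adjusted p = 0.000706 by edgeR), in GB20 vs. MOG (0.65, 0.00019) and in GV16 vs. MOG (0.50, 0.00452). With the length trend offset and replicate block together, 2 members were called in MOG vs. SHAM (Arr3 at -0.42 and Gnb3 at 0.30) and 1, Arr3, in GB20 vs. MOG and in GV16 vs. MOG. Same-numbered libraries did not all deviate together in these 3 comparisons (lowest correlation -0.074 in MOG vs. SHAM, -0.041 in GB20 vs. MOG and 0.011 in GV16 vs. MOG). The libraries numbered 1 had correlations of 0.28 in MOG vs. SHAM, -0.041 in GB20 vs. MOG and 0.39 in GV16 vs. MOG. Whether the number marks a pairing in these comparisons is not known. The block changed no other call of a member, and gave Opn1mw 0.35 in GV16 vs. SHAM (adjusted p = 0.0182) and 0.30 in GB20 vs. SHAM (adjusted p = 0.0603).

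The opsin ratio of GB20 minus GV16 (0.026) turned sign without GB20 replicate 3 (-0.015) or GV16 replicate 2 (-0.0080), and ranged from -0.015 to 0.086. With 1 library left out the other differences kept their sign, from -0.42 to -0.36 in GB20 vs. MOG, -0.47 to -0.37 in GV16 vs. MOG, -0.50 to -0.43 in GB20 vs. SHAM, -0.54 to -0.45 in GV16 vs. SHAM and -0.10 to -0.038 in MOG vs. SHAM. Protein sequences were not used here.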
